A study of Mus musculus with 18 samples.

Results

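The genes described here encode enzymes that make reactive oxygen or nitrogen species, and the subunits without which those enzymes do not work. There were 9 of them among the 47729 genes of the count table, found by their gene symbols. They fall into 5 genes known from the epithelium (*Nox1*, *Noxo1*, *Duox2*, *Duoxa2* and *Nos2*) and 4 of the phagocyte oxidase (*Cyba*, *Cybb*, *Ncf1* and *Ncf4*). RNA-Seq of the colon was available for 9 mice in 3 groups of 3, and each mouse keeps its library number here. Mice 1 to 3 were WT mice with the treatment label Control (Control WT). Mice 4 to 6 were WT mice that received the carcinogen azoxymethane (AOM) at 10 mg/kg, followed by dextran sulfate sodium (DSS), an irritant of the colon, at 2.5% in 3 cycles (AOM-DSS WT). Mice 7 to 9 were Claudin-2TG mice with the same AOM-DSS label (AOM-DSS Claudin-2TG), in which the villin promoter drives *Cldn2* in intestinal epithelium. The deposited protocol text names AOM and DSS under the control samples too, so the controls were identified by their treatment label. There were no untreated Claudin-2TG mice among the samples analysed here, so an effect of the transgene without AOM-DSS could not be measured. Both AOM-DSS groups carry the source label of colitis-associated colon cancer, and the labels do not say whether tumour or other tissue was taken. The ages of the mice are not in the labels.

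Each library held 14142711 to 22262546 counted reads, and levels are given as CPM, counts scaled to equal library totals after TMM normalization, unless another scale is named. Differences were tested with the quasi-likelihood test of edgeR and p-values adjusted over all genes tested. *Cldn2* was 226 CPM in AOM-DSS Claudin-2TG mice, 129 CPM in AOM-DSS WT mice and 232 CPM in Control WT mice. Its log2 fold change between the AOM-DSS groups was 0.78 (edgeR's quasi-likelihood test, adjusted p = 0.0103). Control WT mouse 1 had 214 CPM of *Xist* and the other 8 mice at most 0.203 CPM, so 1 mouse was female by RNA. *Nox1* and *Cybb* are on the X chromosome. Nothing in the labels says how the mice of a group were housed or bred, and p-values measure the spread between these mice.

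NADPH oxidases pass electrons from NADPH across a membrane to oxygen. NOX1 is the form of the colon epithelium and makes superoxide with its organizer NOXO1 and activator NOXA1. DUOX2 releases hydrogen peroxide at the apical surface and needs the maturation factor DUOXA2 to leave the endoplasmic reticulum. The phagocyte oxidase has NOX2, encoded by *Cybb*, as its catalytic subunit, cytosolic subunits that include the products of *Ncf1* and *Ncf4*, and the small membrane subunit encoded by *Cyba*, which also stabilizes NOX1 in epithelial cells. NOS2, the inducible nitric oxide synthase, makes nitric oxide from arginine and is made by epithelial cells and macrophages in inflamed tissue.

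*Duox2* and *Duoxa2* lie beside each other on chromosome 2 and are read in opposite directions. In the deposited table *Duox2* spans 122279247 to 122298165 on the minus strand and *Duoxa2* 122298900 to 122302885 on the plus strand (GRCm38), with 734 bases between them. *Nox1* (134086421 to 134221956) and *Cybb* (9435252 to 9487771) are on the minus strand of the X chromosome. *Ncf1* is on the minus strand of chromosome 5 (134220053 to 134229625) and *Cyba* on that of chromosome 8 (122424772 to 122432940). *Noxo1* (chromosome 17, 24696234 to 24700529), *Nos2* (chromosome 11, 78920787 to 78960254) and *Ncf4* (chromosome 15, 78244801 to 78262580) are on the plus strand. RefSeq windows at the start site (GRCm38.p6) matched 7 of the 9 genes. *Nos2* and *Ncf4* have no entry.

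The windows of *Duoxa2*, *Nox1*, *Cybb* and *Ncf1* are shown because these 4 stand for the genes that were called in opposite directions in AOM-DSS WT against Control WT mice below, *Nox1* lower and the other three higher. Each is the 250 bases before the start, written in the direction of transcription, with motif matches in capitals. GENCODE M21 places the *Duoxa2* (chr2:122298650-122298899, plus strand) and *Ncf1* (chr5:134229626-134229875, minus strand) windows between genes. The *Nox1* (chrX:134111855-134112104, minus strand) and *Cybb* (chrX:9469325-9469574, minus strand) windows lie inside the longer annotated spans of their own genes and outside exons.
Duoxa2: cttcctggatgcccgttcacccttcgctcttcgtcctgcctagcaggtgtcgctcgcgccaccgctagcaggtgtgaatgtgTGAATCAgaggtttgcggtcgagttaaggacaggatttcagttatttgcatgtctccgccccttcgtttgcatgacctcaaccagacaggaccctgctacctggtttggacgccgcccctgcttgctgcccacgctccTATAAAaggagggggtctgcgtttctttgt
Nox1: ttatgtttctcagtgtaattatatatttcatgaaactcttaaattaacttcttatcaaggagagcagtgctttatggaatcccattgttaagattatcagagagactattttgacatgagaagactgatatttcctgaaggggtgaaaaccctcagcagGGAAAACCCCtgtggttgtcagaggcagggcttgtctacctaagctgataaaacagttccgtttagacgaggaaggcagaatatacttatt
Cybb: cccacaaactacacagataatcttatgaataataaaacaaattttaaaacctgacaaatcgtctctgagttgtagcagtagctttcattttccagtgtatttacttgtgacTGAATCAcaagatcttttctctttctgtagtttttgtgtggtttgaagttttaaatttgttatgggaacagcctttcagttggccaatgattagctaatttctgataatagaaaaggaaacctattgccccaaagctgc
Ncf1: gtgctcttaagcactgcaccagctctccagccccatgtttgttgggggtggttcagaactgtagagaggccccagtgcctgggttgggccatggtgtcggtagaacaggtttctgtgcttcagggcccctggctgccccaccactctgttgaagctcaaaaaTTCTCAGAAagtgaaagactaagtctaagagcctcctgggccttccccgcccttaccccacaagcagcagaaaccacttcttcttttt

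Both strands of each 300-base window, 250 bases before to 50 after the start, were searched for 6 motifs. *Duoxa2* held an AP-1 motif (TGANTCA) at position -168 and a TATA box (TATAAA) at position -30. *Cybb* held the same AP-1 letters, TGAATCA, at position -139. *Nox1* held a kappa B motif on the minus strand at position -91, and *Ncf1* a GAS motif (TTCNNNGAA) at position -88. Positions are those of the first base of a match, counted from the start site. Over all 32851 windows in the table, 7.81% hold AP-1, 13.6% TATA, 8.46% kappa B and 8.3% GAS. The PU.1 core (GAGGAAGT, 3.2% of windows) and CRE (TGACGTCA, 1.79%) had no match among the 7 genes, and *Duox2*, *Noxo1* and *Cyba* held none of the 6 motifs. A match is a description of letters only.

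In Control WT colon, levels per kilobase of exon (RPKM) put *Cyba* first, at 121 to 149 RPKM in the 3 mice. *Duox2* at 24.8 ± 3.43 RPKM (SD, n = 3), *Nox1* at 23.5 ± 11.9 RPKM and *Duoxa2* at 20.01 ± 3.14 RPKM came next and did not differ beyond their spread. The organizer *Noxo1* was far lower, at 1.29 ± 0.338 RPKM, near *Nos2* at 1.01 ± 0.455 RPKM. *Ncf4* (0.866 ± 0.546 RPKM), *Ncf1* (0.694 ± 0.190 RPKM) and *Cybb* (0.457 ± 0.288 RPKM) closed the order and overlapped with each other. In AOM-DSS WT mice *Noxo1* was the lowest by its mean, at 1.004 ± 0.541 RPKM, and *Nox1*, at 7.70 ± 2.68 RPKM, lay below *Duoxa2* (71.5 ± 38.5 RPKM) and *Duox2* (50.6 ± 24.4 RPKM) in every mouse. *Nos2* ranged there from 2.50 to 69.5 RPKM. In AOM-DSS Claudin-2TG mice *Cyba* again led at 186 ± 26.3 RPKM, followed by *Duoxa2* at 38.4 ± 12.2 RPKM, *Duox2* at 28.8 ± 3.56 RPKM and *Nox1* at 13.8 ± 0.626 RPKM.

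**Figure D1:**
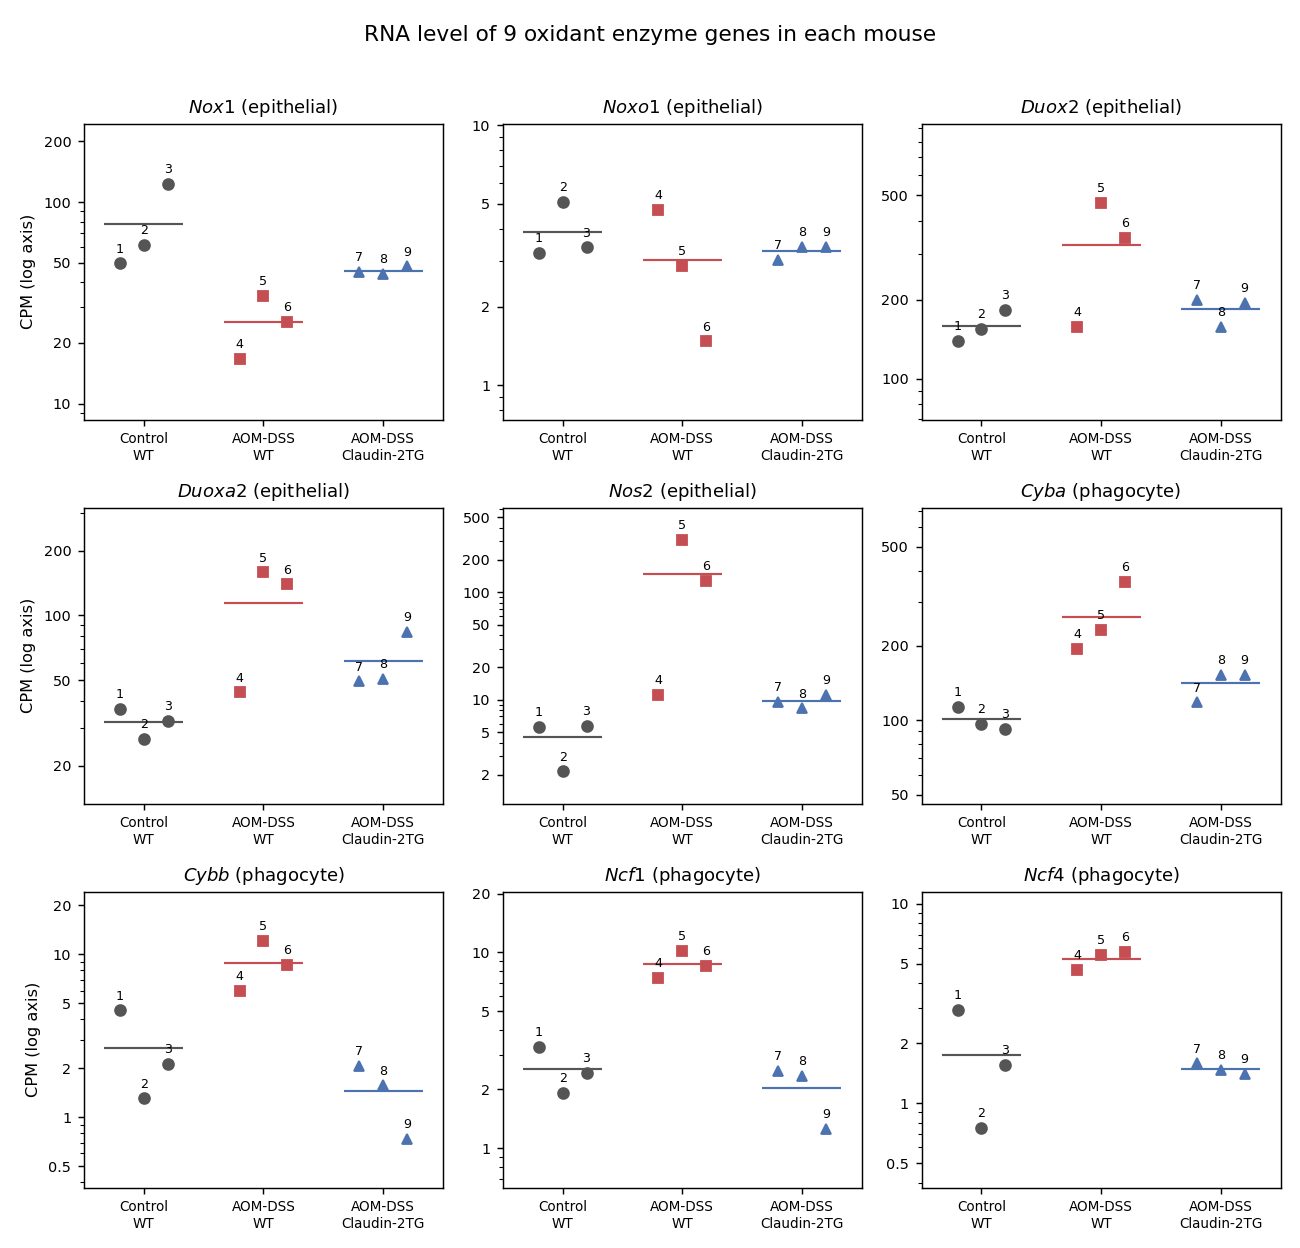
RNA level in CPM on log axes of the 9 oxidant enzyme genes, 1 panel a gene, with 1 point a mouse (library number above it) and a line at the group mean of 3 mice. The 4 phagocyte genes are higher in each AOM-DSS WT mouse than in any other mouse, *Nox1* is lower there, and mouse 4 stands apart from mice 5 and 6 in *Duox2*, *Duoxa2* and *Nos2*.

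The first comparison asked what AOM-DSS treatment did to these genes in WT colon. *Nos2* and *Duoxa2* and all 4 phagocyte oxidase genes were higher in AOM-DSS WT mice than in Control WT mice, by 2.65-fold (*Cyba*) to 33.4-fold (*Nos2*), and *Nox1* was lower, at 0.334 of the control level. All 9 genes passed the filter on low counts, and 7 of the 9 passed the test, 6 higher and 1 lower. Of all 15437 genes tested, 15.0% passed, 8.04% higher and 6.92% lower. The same 7 genes had groups of mice that did not overlap, against 38.0% of all genes tested, 17.7% higher and 20.3% lower. In bulk colon RNA, more cells of a type and more RNA per cell cannot be told apart.

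*Nox1* measured 49.6, 61.2 and 123 CPM in Control WT mice 1, 2 and 3 and 16.6, 34.4 and 25.4 CPM in AOM-DSS WT mice 4, 5 and 6. The groups did not overlap, and control mouse 3 was the highest of all mice. The difference on the log2 scale was -1.58 with a standard error (SE) of 0.39 and an adjusted p of 0.0403. The call was lost when any 1 of the 6 mice was left out, with adjusted p from 0.0528 without mouse 5 to 0.119 without mouse 6. The log2 fold change was -1.11 without mouse 3 (adjusted p = 0.0774) and -1.83 without mouse 1, the female (adjusted p = 0.0561). Relative to the summed epithelial markers, *Nox1* was 2.94, 3.41 and 6.48 CPM per 1000 CPM in the control mice and 0.793, 1.77 and 1.47 in the AOM-DSS WT mice, which did not overlap either. The epithelial markers themselves (11 genes, led by *Krt8* and *Krt19*, keratins) summed to 16903.5 to 18899 CPM in Control WT and 17322 to 20942 CPM in AOM-DSS WT mice, and no marker was at 0. Of the 11, 0 passed edgeR's test, 4 had an unadjusted p under 0.05 and DESeq2 called 2 higher. The organizer of NOX1, *Noxo1*, was 3.23, 5.07 and 3.39 CPM in control mice and 4.72, 2.87 and 1.47 CPM in AOM-DSS WT mice. Those ranges overlapped, with a log2 fold change of -0.33 (95% interval -1.29 to 0.63, adjusted p = 0.618).

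*Duoxa2* was 36.6, 26.7 and 32.3 CPM in Control WT mice and 43.8, 158 and 139 CPM in AOM-DSS WT mice. All 3 treated mice were above the controls, mouse 4 by little. The log2 fold change was 1.86 (SE 0.45, adjusted p = 0.0371). *Duox2*, the enzyme itself, was 139.7, 155 and 183 CPM in controls and 158, 469 and 345 CPM in AOM-DSS WT mice. Mouse 4 lay within the control range, and the log2 fold change of 1.05 did not pass the test (SE 0.36, adjusted p = 0.0896). Without mouse 4 it was 1.37 with an adjusted p of 0.00116, and with all 9 mice in the fit the adjusted p was 0.0454. DESeq2 called *Duox2* higher (adjusted p = 0.00819). The call of *Duoxa2* was lost without mouse 1, 2, 3, 5 or 6, with adjusted p between 0.0761 and 0.132. Per length, there were 0.948, 1.44 and 1.41 *Duox2* for each *Duoxa2* in the control mice and 0.896, 0.736 and 0.616 in the AOM-DSS WT mice. The maturation factor was the more abundant RNA of the pair in each AOM-DSS WT mouse and in control mouse 1, and the ratio was 1.01, 0.778 and 0.579 in AOM-DSS Claudin-2TG mice. These counts come from genes whose annotated spans partly overlap others: *Duoxa2* overlaps *Duoxa1*, which is on the other strand and had 16 to 94 counts, and the strand setting of the counting is not stated.

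*Nos2* had the largest log2 fold change of the 9 genes and the largest SE. It was 5.57, 2.16 and 5.69 CPM in Control WT mice and 11.02, 307 and 127 CPM in AOM-DSS WT mice. All treated mice were above all controls, with mouse 4 near the controls and mice 5 and 6 far above them. The log2 fold change was 5.06 (SE 1.16, 95% interval 2.28 to 7.84, adjusted p = 0.0350). The adjusted p was 0.0961 without mouse 1, 0.120 without mouse 2, 0.109 without mouse 3, 0.0658 without mouse 5 and 0.0827 without mouse 6. The log2 fold change itself ranged from 3.98 without mouse 5 to 5.60 without mouse 4.

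All 4 phagocyte oxidase genes were higher in AOM-DSS WT mice, but *Cyba* stood at a far higher level than the others. Per length, the median was 0.00303 *Cybb* for each *Cyba* in Control WT and 0.00401 in AOM-DSS WT mice. *Cyba* also serves NOX1, and the cells that held its RNA were not determined. *Cybb* was 4.53, 1.31 and 2.13 CPM in Control WT mice and 5.94, 12.1 and 8.64 CPM in AOM-DSS WT mice, and the groups did not overlap. Its log2 fold change was 1.77 (SE 0.47, adjusted p = 0.0429), and 2.39 without mouse 1, the female (adjusted p = 0.0374). *Ncf1* was 3.28, 1.91 and 2.43 CPM against 7.42, 10.2 and 8.57 CPM, again with every treated mouse above every control. It had the smallest adjusted p of the 9 genes (0.00963), with a log2 fold change of 1.80 (SE 0.27).

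*Ncf4* was 2.94, 0.753 and 1.56 CPM in Control WT mice and 4.67, 5.53 and 5.76 CPM in AOM-DSS WT mice, a log2 fold change of 1.62 (adjusted p = 0.0453) that was 2.21 without mouse 1. *Cyba* was 113, 96.8 and 91.8 CPM against 194, 231 and 360.3 CPM, a log2 fold change of 1.41 (adjusted p = 0.0138). Neither pair of groups overlapped. Leaving out single mice changed these calls: *Cybb* and *Ncf4* were lost without mouse 2, 3, 5 or 6, *Cyba* without mouse 2 or 3 (adjusted p = 0.0683 and 0.0591), and *Ncf1* without mouse 2 alone (adjusted p = 0.0530). Without mouse 2 edgeR called 0 of the 9 genes, 7 had an unadjusted p under 0.05, and 135 genes were called in all. The median log2 fold change was 1.70 over the 4 phagocyte genes and 1.05 over the 5 epithelial genes, against 0.02 over all genes tested.

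Markers of immune cells were higher in the same mice. The 12 monocyte and macrophage markers, led by *Cd14* and *Lyz2* (a lipopolysaccharide coreceptor and lysozyme), summed to 167 to 202 CPM in Control WT and 222 to 475 CPM in AOM-DSS WT mice, and 7 of 12 were called higher. Of all genes tested, 8.04% were called higher. Of the 11 neutrophil markers, 5 had enough counts to be tested and all 5 were called higher, but *Ly6g* made up nearly all of their sum (138 to 208 CPM against 302 to 388 CPM). The others tested, *S100a8*, *S100a9*, *Csf3r* and *Ltf*, had at most 11 counts in any control. They passed the filter through the AOM-DSS WT mice, so the filter partly fixed this count. Without *Ly6g*, a choice made after its values were seen, the other 10 summed to 0.603 to 1.43 CPM in controls and to 4.01, 60.9 and 37.2 CPM in mice 4, 5 and 6. The granule genes *Ngp* and *Elane* were at 0 in both groups, and *Retnlg* and *Mpo* at 0 in the controls. *Cybb* per 1000 CPM of monocyte and macrophage markers was 22.4, 7.81 and 10.8 in the controls and 26.8, 27.2 and 18.2 in AOM-DSS WT mice, which overlapped through mice 1 and 6. The same ratio for *Ncf1* did not overlap (16.2, 11.4 and 12.4 against 33.4, 22.9 and 18.0). *Cd14*, the largest part of that marker sum by mean, had a log2 fold change of 0.23 and was not called (adjusted p = 0.554). The median log2 fold change of the marker list was 1.63, against 1.77 for *Cybb*. A higher ratio here thus does not show a change beyond that of most macrophage markers. The part of the immune markers in the oxidase difference was not tested.

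**Figure D2:**
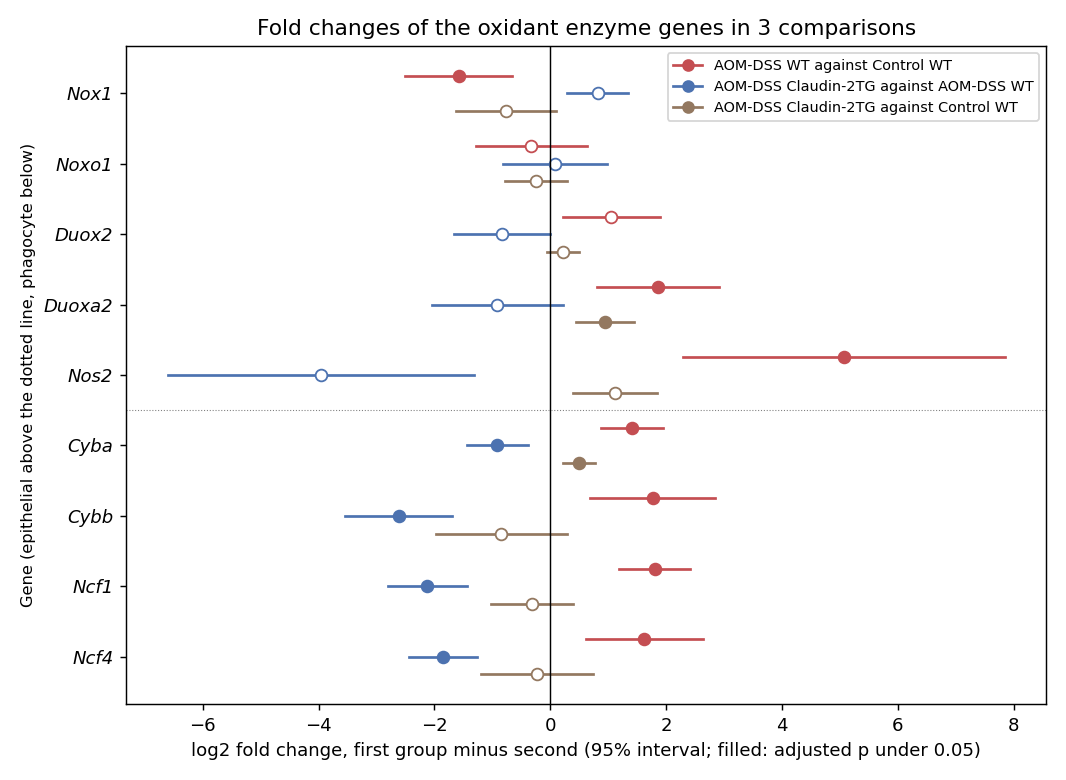
Log2 fold change of each gene with its 95% interval in 3 comparisons, where a filled point has an adjusted p under 0.05 by edgeR's quasi-likelihood test and epithelial genes stand above the dotted line. Phagocyte genes are filled above 0 in AOM-DSS WT against Control WT and below 0 in AOM-DSS Claudin-2TG against AOM-DSS WT, while no epithelial gene is filled in the latter.

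The next comparison asked how the transgene altered these genes under AOM-DSS. All 4 phagocyte oxidase genes were lower in AOM-DSS Claudin-2TG than in AOM-DSS WT mice, at 0.163 (*Cybb*), 0.230 (*Ncf1*), 0.276 (*Ncf4*) and 0.531 (*Cyba*) of the WT level. Of the 5 epithelial genes, 0 passed the test, although 3 of them had an unadjusted p under 0.05 and DESeq2 called 2, *Nox1* and *Nos2*. So 4 of the 9 genes were called, all lower, against 9.54% of the 14888 genes tested, 2.19% higher and 7.35% lower. The AOM-DSS WT mice are the same mice as above, so the opposite directions of these comparisons share their error. Their median log2 fold change was -1.99 over the phagocyte genes and -0.83 over the epithelial genes, against 0.01 over all genes tested. The difference between the gene groups was not tested.

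*Cybb* was 2.07, 1.57 and 0.739 CPM in AOM-DSS Claudin-2TG mice 7, 8 and 9, from 30, 31 and 10 counts, below the lowest AOM-DSS WT mouse at 5.94 CPM. Its log2 fold change was -2.62 (SE 0.41, adjusted p = 0.00973). *Ncf1* was 2.48, 2.33 and 1.26 CPM against at least 7.42 CPM in AOM-DSS WT mice, a log2 fold change of -2.12 (SE 0.30, adjusted p = 0.00848). *Ncf4* was 1.58, 1.47 and 1.40 CPM against at least 4.67 CPM, a log2 fold change of -1.86 (SE 0.26, adjusted p = 0.00804). The mice of the groups were fully apart in *Cybb*, *Ncf1* and *Ncf4*.

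*Cyba*, the small membrane subunit, was 118, 152 and 153 CPM in AOM-DSS Claudin-2TG mice, below the 194 to 360.3 CPM of AOM-DSS WT mice but with a smaller change (log2 fold change -0.91, SE 0.23, adjusted p = 0.0428). Its call was lost when any 1 of mice 5 to 9 was left out, with adjusted p from 0.0662 to 0.156. Without mouse 8 edgeR called 0 of the 9 genes and 6 had an unadjusted p under 0.05, with adjusted p of 0.0604 for *Cybb*, 0.0520 for *Ncf1* and 0.0563 for *Ncf4*, when 58 genes were called in all. Without mouse 9 the call of *Ncf1* remained, and *Cybb* and *Ncf4* each had an adjusted p of 0.0506. Their log2 fold changes stayed between -2.66 and -1.81 in those fits.

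Immune markers again moved with the oxidase genes. The monocyte and macrophage markers summed to 112 to 158 CPM in AOM-DSS Claudin-2TG mice, below the 222 to 475 CPM of AOM-DSS WT mice. Of the 11 markers tested, 8 were called lower, where 7.35% of all genes tested were. *Cybb* per 1000 CPM of these markers was 13.0, 12.5 and 6.58, below the 18.2 to 27.2 of AOM-DSS WT mice. *Cd14*, the largest part of the marker sum by mean, had a log2 fold change of -0.67 and was not called (adjusted p = 0.117). The median over the markers tested was -2.23, against -2.62 for *Cybb*. A lower ratio here thus does not show a change beyond that of most macrophage markers. *Ncf4* per 1000 CPM was 10.0, 11.7 and 12.5 and overlapped with the 12.1 to 21.0 of AOM-DSS WT mice, as did *Ncf1*. With 3 mice against 3, an exact permutation test of such a ratio cannot go below p = 0.1. The T cell markers summed to 3.45 to 5.91 CPM against 12.4 to 19.9 CPM, with 4 of 5 called lower. *Ngp* and *Mpo* were at 0 in AOM-DSS Claudin-2TG mice, and the neutrophil markers other than *Ly6g* summed to 0.964 to 1.77 CPM, near the controls. *Ly6g* itself did not follow them: it was 302, 350 and 331 CPM in AOM-DSS Claudin-2TG mice and 298 to 327 CPM in AOM-DSS WT mice. The part of these markers in the oxidase difference was not tested.

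*Nox1* was 45.2, 43.9 and 47.9 CPM in AOM-DSS Claudin-2TG mice, a narrow range above all AOM-DSS WT mice (16.6 to 34.4 CPM) and below all Control WT mice (49.6 to 123 CPM). Against AOM-DSS WT the log2 fold change of 0.82 did not pass the test (SE 0.23, 95% interval 0.29 to 1.35, adjusted p = 0.0617), while DESeq2 gave an adjusted p of 0.0103. Of the 9 genes, *Nox1* was higher and the 4 phagocyte genes lower without overlap, against 28.5% of all genes tested, 14.2% higher and 14.3% lower. Without mouse 4 the value was 0.60 with an adjusted p of 0.0261, and without mouse 5 it was 1.09 with an adjusted p of 0.0345. *Nox1* per 1000 CPM of epithelial markers was 2.38, 1.98 and 2.06 in these mice, against 0.793 to 1.77 in AOM-DSS WT mice.

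*Duox2* was 200, 158 and 195 CPM in AOM-DSS Claudin-2TG mice and *Duoxa2* 49.4, 50.5 and 83.7 CPM. In both genes AOM-DSS WT mouse 4 was below all 3 of these mice, in *Duox2* by less than 1 CPM, and mice 5 and 6 were above them. The log2 fold changes were -0.83 for *Duox2* (adjusted p = 0.212) and -0.92 for *Duoxa2* (adjusted p = 0.318). *Nos2* was 9.64, 8.31 and 11.1 CPM, which overlapped with the 11.02 CPM of mouse 4, and its log2 fold change of -3.96 had an adjusted p of 0.0794. DESeq2 called *Nos2* lower (adjusted p = 0.00353), and so did edgeR with all 9 mice in the fit (adjusted p = 0.0364). Without mouse 4, the log2 fold changes were -1.15 for *Duox2* (adjusted p = 0.00124), -1.30 for *Duoxa2* (adjusted p = 0.00455) and -4.50 for *Nos2* (adjusted p = 0.000700), and 8 of the 9 genes were called. That fit called more genes in general, 2894 of 15109 tested, against 1421 of 14888 with all 6 mice. Without mouse 5 the log2 fold change of *Nos2* was smaller in size, at -2.86 (adjusted p = 0.210). *Noxo1* was the exception, at 3.03, 3.40 and 3.40 CPM and a log2 fold change of 0.08 (95% interval -0.82 to 0.98, adjusted p = 0.945).

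Mouse 4 was the lowest AOM-DSS WT mouse in 8 of the 9 genes, with *Noxo1* as the exception. Its summed monocyte and macrophage markers, at 222 CPM, were also the lowest of that group, against 446 and 475 CPM in mice 5 and 6. Its smooth muscle markers were the highest of the group at 2579 CPM, against 944 and 1103 CPM, and so were its B cell markers (47.8 CPM against 24.8 and 40.8 CPM) and its epithelial markers (20942 CPM against 19372 and 17322 CPM). The labels give no reason to set it aside, and it stays in every main value.

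**Figure D3:**
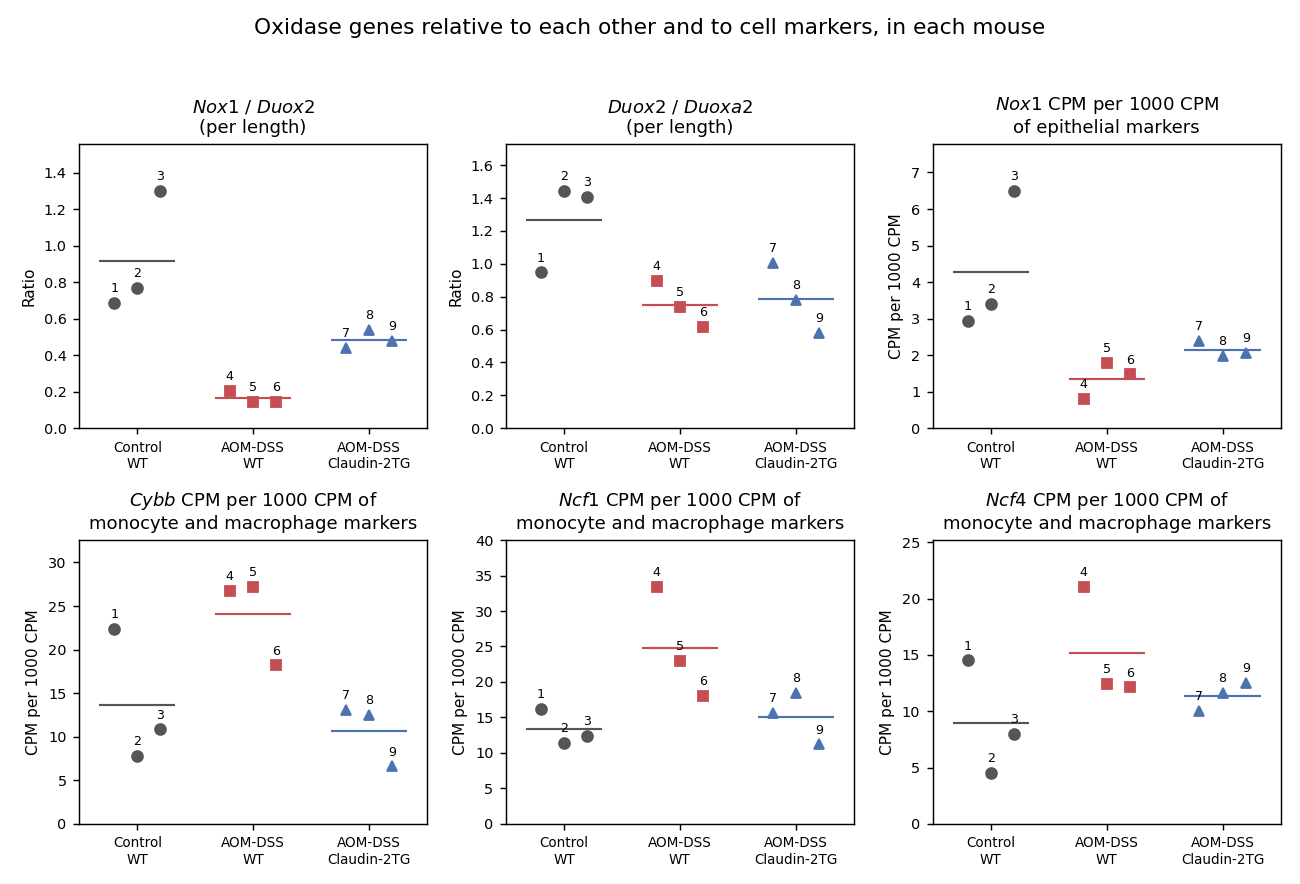
Ratios in each mouse on linear axes from 0, with library numbers and group means: *Nox1* to *Duox2* and *Duox2* to *Duoxa2* per exon length, *Nox1* per 1000 CPM of epithelial markers, and *Cybb*, *Ncf1* and *Ncf4* per 1000 CPM of monocyte and macrophage markers. *Nox1* to *Duox2* is 0.142 to 0.204 in AOM-DSS WT mice and does not overlap with either other group.

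The ratio of *Nox1* to *Duox2* separated all 3 groups, as *Nox1* alone did, while *Duox2* overlapped in each comparison. Per length, there were 0.688, 0.766 and 1.30 *Nox1* for each *Duox2* in Control WT mice. In AOM-DSS WT mice the ratio was 0.204, 0.142 and 0.143, and in AOM-DSS Claudin-2TG mice 0.438, 0.537 and 0.477. Mouse 4 was not apart from its group here. The ratio was chosen after the values of both genes were known, and a two-sided exact permutation test gave p = 0.1 in each of the 3 comparisons, the smallest that 3 mice against 3 allow. *Nox1* to its activator *Noxa1* per length was lower in both AOM-DSS groups than in controls without overlap (median 0.261 in AOM-DSS WT, 0.333 in AOM-DSS Claudin-2TG and 0.424 in Control WT mice). *Nox1* to its organizer *Noxo1* overlapped in every comparison (median 10.9 in AOM-DSS WT, 12.9 in AOM-DSS Claudin-2TG and 14.0 in Control WT mice).

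In AOM-DSS Claudin-2TG against Control WT mice, 2 of the 9 genes were called, *Duoxa2* and *Cyba*, both higher, against 10.0% of the 15013 genes tested, 3.92% higher and 6.07% lower. Of the 1501 genes called, 39.2% were higher, and 17.4% of 1586 were higher with scaling by library size alone, which moved the median log2 fold change of all genes from 0.0023 to -0.11 and left *Duoxa2* as the call among the 9. The log2 fold change of *Duoxa2* was 0.94 (SE 0.22, adjusted p = 0.0347) and that of *Cyba* 0.49 (SE 0.13, adjusted p = 0.0327). Every AOM-DSS Claudin-2TG mouse was above every control in both genes and in *Nos2*, whose log2 fold change of 1.11 had an adjusted p of 0.0610 by edgeR and 0.00652 by DESeq2. *Nox1* was lower without overlap (log2 fold change -0.76, 95% interval -1.62 to 0.10, adjusted p = 0.236). Of all genes tested, 31.2% did not overlap, 14.9% higher and 16.3% lower.

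The other 5 genes overlapped between these groups. *Duox2* had a log2 fold change of 0.22 (95% interval -0.06 to 0.49) and *Noxo1* one of -0.24 (-0.78 to 0.29). The phagocyte genes other than *Cyba* had -0.84 for *Cybb* (-1.97 to 0.28), -0.31 for *Ncf1* (-1.02 to 0.39) and -0.23 for *Ncf4* (-1.19 to 0.73), and each of these intervals includes 0. *Cyba* and *Duoxa2* both lost their call without mouse 2 or 3, and *Cyba* also without mouse 8 or 9 (adjusted p = 0.120 and 0.0970). With all 9 mice in 1 fit, neither was called (adjusted p = 0.268 for *Duoxa2* and 0.238 for *Cyba*). In that fit the AOM-DSS WT mice enter the error, the filter and the normalization, and the cause was not tested.

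Of the 10 other genes of the NADPH oxidase family and its regulators, 8 had enough counts to be tested. In AOM-DSS WT against Control WT mice, 2 were called, both higher, where DESeq2 called 3 higher, 6 of the 8 had an unadjusted p under 0.05, and 1 to 5 were called when 1 mouse was left out. Of all genes tested, edgeR called 8.04% higher. *Rac2*, the Rac GTPase of blood cells that activates the phagocyte oxidase, was 6.62, 3.87 and 5.52 CPM in controls and 19.2, 20.3 and 18.3 CPM in AOM-DSS WT mice, a log2 fold change of 1.88 (adjusted p = 0.00495). *Duoxa1*, the maturation factor of DUOX1, had a log2 fold change of 1.58 (adjusted p = 0.0311), from 1.09 to 1.29 CPM in controls to 1.93 to 4.62 CPM.

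In AOM-DSS Claudin-2TG against AOM-DSS WT mice, 2 were called, both lower, where 7.35% of all genes tested were called lower. *Rac2* was 4.75, 4.97 and 3.62 CPM in the AOM-DSS Claudin-2TG mice, a log2 fold change of -2.13 (adjusted p = 0.00182). *Hvcn1*, a proton channel that balances the charge of the phagocyte oxidase, had a log2 fold change of -1.87 (adjusted p = 0.0216), at 0.443 to 1.11 CPM against 2.34 to 3.48 CPM. In AOM-DSS Claudin-2TG against Control WT mice 0 of the 8 were called by edgeR's test and 0 by DESeq2, and 2 had an unadjusted p under 0.05. Of all genes tested there, edgeR called 10.0%. The ubiquitous GTPase *Rac1* (319 to 391 CPM over all mice), the activator *Noxa1* (44.5 to 77.4 CPM) and the chaperone of NOX2 *Cybc1* (39.3 to 55.5 CPM) were not called in any comparison of all 6 mice. *Duox1*, the paralogue of *Duox2*, was at most 1.95 CPM in any mouse and was not called. Without mouse 4, *Noxa1* was called lower (adjusted p = 0.0267) and *Duox1* higher (adjusted p = 0.0253) in AOM-DSS WT than in Control WT mice. *Nox4* was at most 0.486 CPM, and *Nox3* had reads in 1 mouse.

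**Figure D4:**
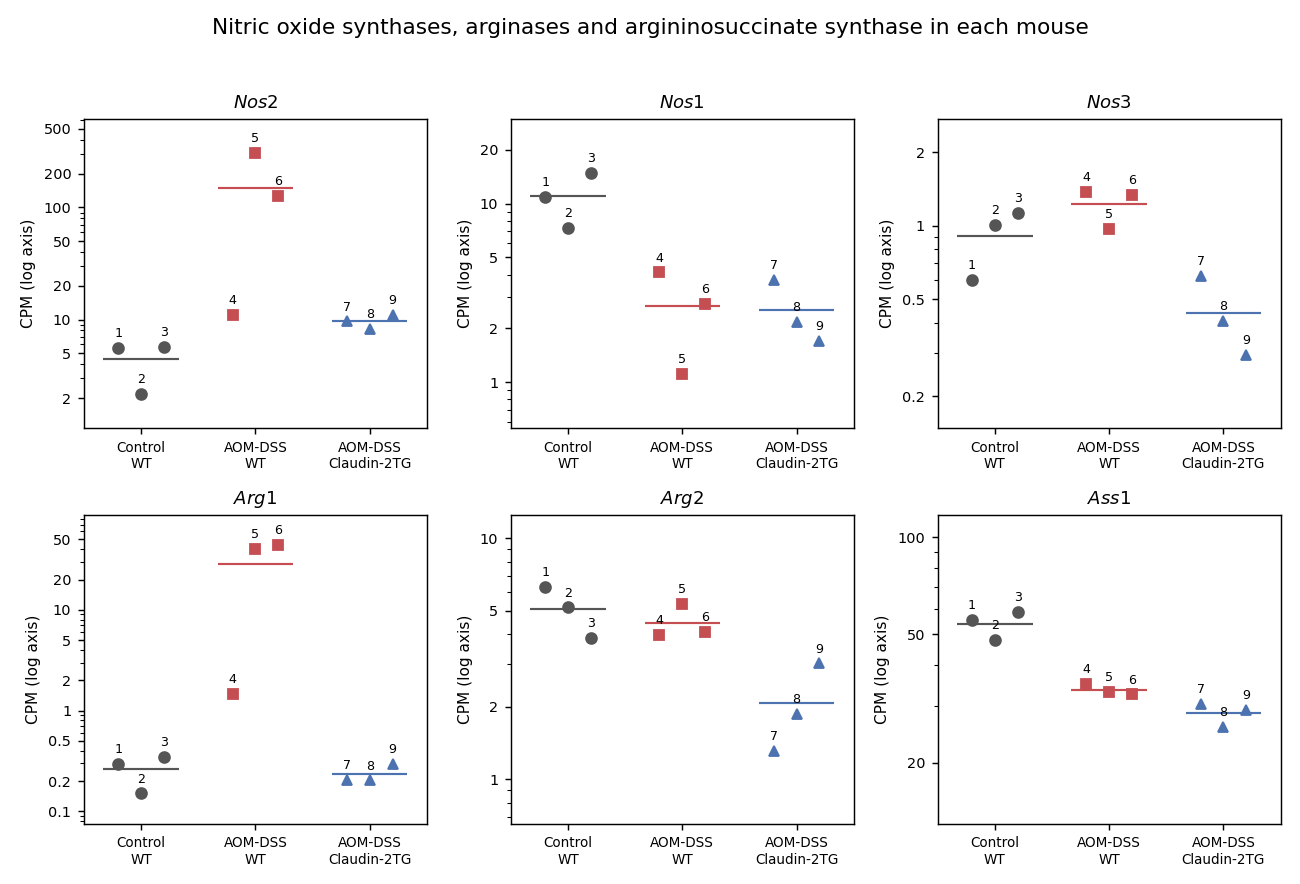
RNA level in CPM on log axes of the 3 nitric oxide synthases, both arginases and *Ass1*, with 1 point a mouse (library number above it) and a line at the group mean. *Nos2* and *Arg1* are high in mice 5 and 6, while *Nos1* and *Ass1* are below the controls in both AOM-DSS groups.

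Nitric oxide synthases and arginases compete for arginine, and 13 genes of this pathway were examined beside *Nos2*. In AOM-DSS WT against Control WT mice 4 of 13 were called higher and 2 lower, where 8.04% and 6.92% of all genes tested were, and 0 to 6 were called when 1 mouse was left out. *Arg1*, an arginase of the liver and of some macrophages, was 0.299, 0.151 and 0.347 CPM in controls and 1.47, 40.4 and 44.0 CPM in AOM-DSS WT mice. As with *Nos2*, mice 5 and 6 were far above mouse 4, and the log2 fold change of 6.72 was called (adjusted p = 0.0265). *Ddah2* (1.96) and *Ddah1* (0.97), which degrade inhibitors of nitric oxide synthases, and *Gch1* (0.73), the first enzyme of the synthesis of their cofactor, also had higher log2 levels. *Nos1*, the neuronal synthase, was lower, at 10.9, 7.28 and 14.9 CPM in controls and 4.11, 1.11 and 2.75 CPM in AOM-DSS WT mice (log2 fold change -2.03, adjusted p = 0.0306). *Ass1*, which recycles citrulline to arginine, was lower by a log2 fold change of -0.66 (adjusted p = 0.0145).

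In AOM-DSS Claudin-2TG against AOM-DSS WT mice, 2 of the 13 were called, both lower, and DESeq2 called 4 lower, among them *Ddah2* (log2 fold change -1.75, adjusted p = 0.000409 by DESeq2 and 0.0562 by edgeR) and *Arg2* (-1.14, adjusted p = 0.0327 and 0.0757). Of all genes tested, edgeR called 7.35% lower. Without overlap, 7 of the 13 were lower and 1 higher, where 14.3% and 14.2% of all genes tested were. When 1 mouse was left out, 0 to 4 of the 13 were called. *Arg1* was 0.207, 0.203 and 0.295 CPM, from no more than 4 counts a mouse, and below all AOM-DSS WT mice. Its log2 fold change of -6.93 was imprecise (SE 1.44, adjusted p = 0.0333). The other edgeR call was *Ddah1*, with a log2 fold change of -1.34 (adjusted p = 0.0119). Against Control WT, where 6.07% of all genes tested were called lower, 3 of 12 tested were called lower: *Nos1* (log2 fold change -2.12, adjusted p = 0.00691), *Arg2* (-1.30, adjusted p = 0.0269) and *Ass1* (-0.92, adjusted p = 0.00222). *Nos1* and *Ass1* were thus below the controls in both AOM-DSS groups, where *Nos1* was 3.72, 2.18 and 1.70 CPM and *Ass1* 30.4, 25.8 and 29.2 CPM in AOM-DSS Claudin-2TG mice against 47.9 to 58.7 CPM in controls. Smooth muscle markers summed to 856 to 1318 CPM in those mice, against 1777 to 3519 CPM in controls and 944 to 2579 CPM in AOM-DSS WT mice. Their part in the *Nos1* difference was not tested. *Nos3*, the endothelial synthase, was 0.295 to 1.37 CPM in all mice and was not called.

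Cytokines that induce *Nos2* and *Duox2* in culture were mostly too low to test. Of 9, *Il1b* and *Tnf* passed the filter, and the cytokines other than *Il1b* are named here after their values were seen. *Il1b* was 0.697, 0.402 and 0.695 CPM in Control WT, 1.78, 18.8 and 10.0 CPM in AOM-DSS WT and 0.620, 0.456 and 0.886 CPM in AOM-DSS Claudin-2TG mice. It was called higher in AOM-DSS WT than in Control WT (log2 fold change 4.10, adjusted p = 0.0249) and lower in AOM-DSS Claudin-2TG than in AOM-DSS WT mice (-4.00, adjusted p = 0.0322). *Tnf* was not called (2.17, adjusted p = 0.0977, and -2.69, adjusted p = 0.0695), although DESeq2 called it in both (adjusted p = 0.00601 and 0.000210). *Ifng*, *Il17a*, *Il22* and *Il13* had at most 0.670 CPM in any mouse.

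Of 19 genes that remove superoxide and peroxide, 1 was called higher and 1 lower in each comparison, where 15.0%, 9.54% and 10.0% of all genes tested were called. When 1 mouse was left out, 0 to 4, 0 to 5 and 0 to 2 of the 19 were called. *Gpx3*, a secreted glutathione peroxidase, was higher in AOM-DSS WT than in Control WT mice (log2 fold change 1.25, adjusted p = 0.0415), and *Cat*, catalase, was lower (-0.69, adjusted p = 0.0183). *Cat* was 79.2, 84.6 and 90.5 CPM in controls, 45.5, 60.8 and 48.7 CPM in AOM-DSS WT and 73.0, 78.3 and 77.1 CPM in AOM-DSS Claudin-2TG mice, where it was higher than in AOM-DSS WT (0.54, adjusted p = 0.0421). *Sod3*, the extracellular superoxide dismutase, was lower in AOM-DSS Claudin-2TG than in AOM-DSS WT mice (-1.76, adjusted p = 0.0115) and than in Control WT mice (-0.94, adjusted p = 0.0248). *Sod1*, the cytosolic one, was higher than in controls (0.36, adjusted p = 0.0404) and kept that call in 1 of 6 fits without 1 mouse.

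Among 15 targets of NRF2, the transcription factor that answers oxidants, 4 were called higher and 2 lower in AOM-DSS WT against Control WT mice (8.04% and 6.92% of all genes tested), led by *Hmox1* (haem oxygenase, log2 fold change 1.85), *Gsta1* (1.83) and *Gsta4* (1.40), both glutathione transferases. DESeq2 called 7 higher and 2 lower there, and edgeR called 0 to 9 when 1 mouse was left out. In AOM-DSS Claudin-2TG against AOM-DSS WT mice 3 were higher and 3 lower (2.19% and 7.35% of all genes tested), led by *Me1* (malic enzyme, -2.48), *Hmox1* (-1.81) and *Gstm3* (1.25). Against Control WT, the 3 called were higher, *Gsta3* (1.08), *Gsta1* (1.07) and *Gsta4* (0.62), and DESeq2 also called 1 lower. Of all genes tested there, 3.92% were called higher. When 1 mouse was left out, 0 to 8 of the 15 were called in the comparison of the AOM-DSS groups and 0 to 2 against Control WT. The median log2 fold change of the list was 0.15, -0.05 and 0.13 in the 3 comparisons. Of 4 haem peroxidases, *Lpo* alone had enough counts to be tested, at 18.2 to 34.8 CPM, and it was lower in AOM-DSS Claudin-2TG mice than in AOM-DSS WT (-0.64, adjusted p = 0.0301) and Control WT mice (-0.57, adjusted p = 0.0383).

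The pathway calls varied in how they held when 1 mouse was left out. *Rac2* kept its call whichever mouse was left out, with an adjusted p of at most 0.0320 in AOM-DSS WT against Control WT and 0.0158 in AOM-DSS Claudin-2TG against AOM-DSS WT mice, as did *Nos1* and *Ass1* in AOM-DSS Claudin-2TG against Control WT mice (at most 0.0407 and 0.0144). In AOM-DSS WT against Control WT mice *Duoxa1*, *Arg1*, *Gch1*, *Ddah1*, *Gpx3* and *Hmox1* were called in 1 of 6 such fits, the one without mouse 4, and *Il1b* and *Nos1* in 2 of 6. In AOM-DSS Claudin-2TG against AOM-DSS WT mice *Arg1*, *Il1b*, *Hmox1* and *Me1* were likewise called in the fit without mouse 4 and in no other of the 6, and *Hvcn1* kept its call in 2 of 6. Each other pathway call named above was lost in 1 or more of its 6 fits.

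The genes whose levels followed a member most closely over the 9 mice were found by the mean absolute difference of log2 CPM, each gene centred on its own mean, among 13883 genes. For *Cybb* they were *Cd53* (0.11), *Sla* (0.12) and *Cxcr4* (0.15), against a mean deviation of 0.97 for *Cybb* itself. *Cd53*, a tetraspanin of leukocytes, was 3.98 ± 2.36 CPM in Control WT, 13.9 ± 3.56 CPM in AOM-DSS WT and 2.74 ± 0.991 CPM in AOM-DSS Claudin-2TG mice (SD, n = 3 each). For *Nos2*, with a mean deviation of 1.64, they were *Cxcl5* (0.41), a chemokine for neutrophils, and *S100a9* (0.46) and *S100a8* (0.46), which neutrophils hold in large amounts. *S100a8* was 0.559, 18.5 and 13.4 CPM in mice 4, 5 and 6 and at most 0.261 CPM in any other mouse, so it split that group as *Nos2* did. For *Nox1* the nearest were *Fam13a* (0.22), *Smo* (0.23), the signal transducer of Hedgehog, and *Scml2* (0.25), against 0.54 for *Nox1* itself. For *Duox2* they were *Xpnpep2* (0.11), *Ube2l6* (0.13) and *Ackr3* (0.14), against 0.43. These are nearest patterns over 9 libraries that share their groups and have no test.

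**Figure D5:**
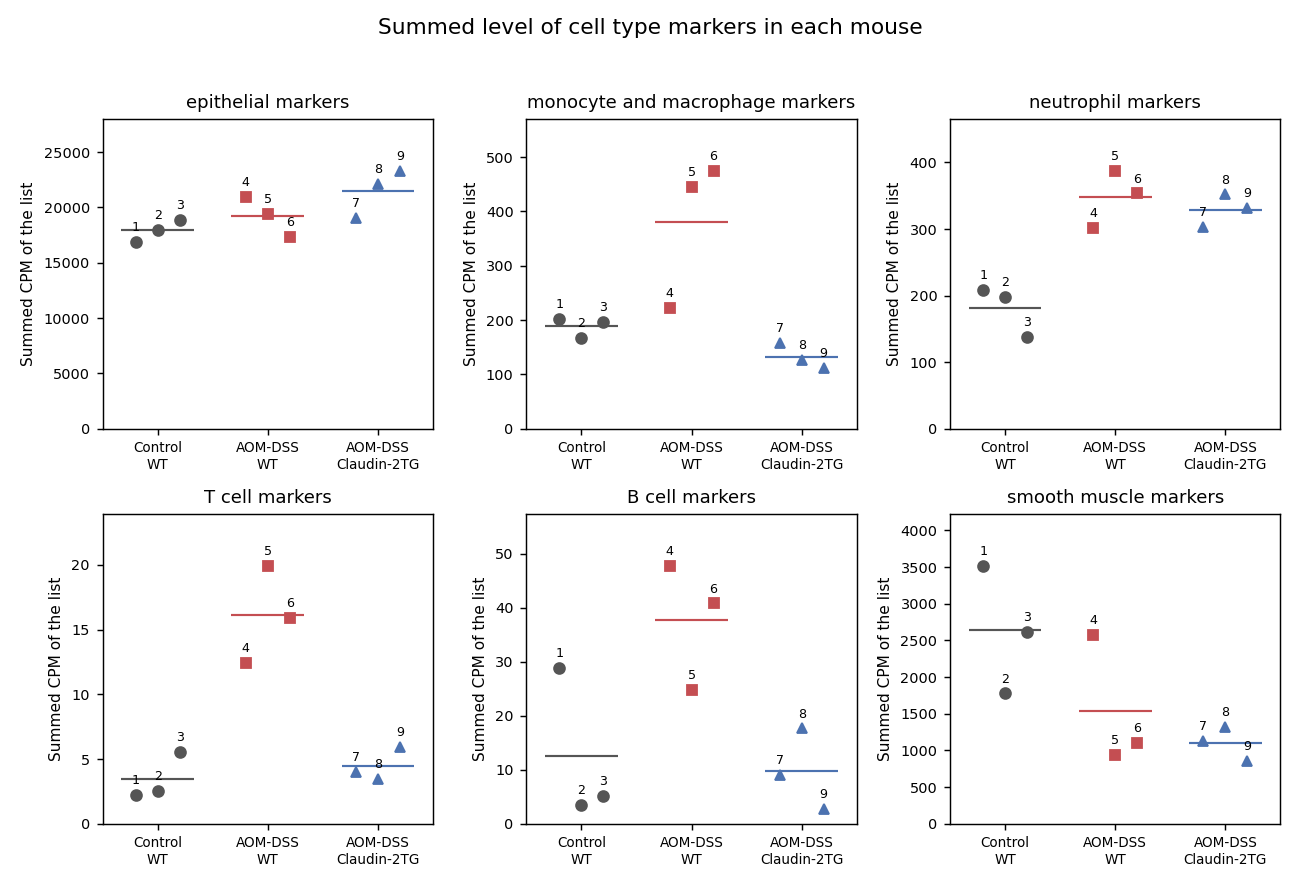
Summed CPM of 6 marker lists in each mouse on linear axes from 0, with library numbers and group means. Monocyte and macrophage and T cell markers are highest in the AOM-DSS WT mice, and epithelial markers overlap between Control WT and AOM-DSS WT mice.

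The other marker lists differed between groups as follows. B cell markers summed to 3.51 to 28.8 CPM in Control WT, 24.8 to 47.8 CPM in AOM-DSS WT and 2.81 to 17.6 CPM in AOM-DSS Claudin-2TG mice, with 1 of 5 called, lower in AOM-DSS Claudin-2TG than in AOM-DSS WT mice, where DESeq2 called all 5 lower. Fibroblast markers summed to 151 to 216 CPM, 224 to 612 CPM and 118 to 153 CPM, and 1 of 5 was called lower in AOM-DSS Claudin-2TG mice against each other group, where DESeq2 called 5 lower against AOM-DSS WT and 2 against Control WT. Smooth muscle markers summed to 1777 to 3519 CPM in Control WT, 944 to 2579 CPM in AOM-DSS WT and 856 to 1318 CPM in AOM-DSS Claudin-2TG mice, with 2 of 5 called lower in AOM-DSS Claudin-2TG than in Control WT mice, and 5 by DESeq2. Eosinophil markers summed to at most 2.52 CPM in any mouse, 1 of 4 could be tested and was not called, and *Epx* was at 0 in Control WT and AOM-DSS Claudin-2TG mice. Epithelial markers summed to 19014.5 to 23322 CPM in AOM-DSS Claudin-2TG mice, with 2 of 11 called higher than in controls. T cell markers were 2.24 to 5.56 CPM in Control WT mice, and 4 of 5 were called higher in AOM-DSS WT mice. Of all genes tested, 8.04% were called higher in AOM-DSS WT against Control WT mice. In AOM-DSS Claudin-2TG mice, 7.35% were called lower against AOM-DSS WT, and 3.92% higher and 6.07% lower against Control WT mice. The marker counts also moved when 1 mouse was left out. In AOM-DSS WT against Control WT mice they ranged over 0 to 11 for monocyte and macrophage, 0 to 7 for neutrophil and 0 to 4 for T cell markers. They ranged in AOM-DSS Claudin-2TG against AOM-DSS WT mice over 0 to 12, 0 to 5 and 0 to 5.

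Some counts carry an uncertainty of assignment. *Noxo1* overlaps *Tbl3* on the other strand, which had 342 to 842 counts against 22 to 101 for *Noxo1*, and *Ncf1* overlaps *Gtf2ird2* on the other strand (87 to 239 counts against 17 to 231). The span of *Nox1* holds *Cstf2* on the other strand (772 to 2267 counts) and *Xkrx* on its own (5 to 20 counts). Without a stated strand setting, reads of such partners cannot be told apart where exons overlap.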

How the data were processed

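RNA from the colon of 9 mice was sequenced, and the authors deposited whole-number read counts per gene for each of 2 lanes per mouse, together with gene positions and exon lengths. The paper's methods name TopHat2 as mapper, and the submitters' processing notes name HISAT2, Subread, featureCounts and GRCm38, with versions and strand setting not given in the sources used here. Lanes of a mouse differed by little more than counting noise (chi-square per degree of freedom 0.995 to 1.06) and were summed, using all 18 count columns. Gene symbols came from the reference table, which matched 47224 of 47729 identifiers. No row without a gene was counted. Depth was 14142711 to 22262546 counts per mouse, so that a count of 0 allows up to 0.130 to 0.222 CPM (3 counts, counting error only).

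Each comparison used the 6 mice of its groups, with edgeR 4.0.16 (filterByExpr with minimum count 10 and minimum total 15, TMM, quasi-likelihood test) under R 4.3.3, and p-values were adjusted across the genes tested by the method of Benjamini and Hochberg. A gene was called at an adjusted p under 0.05. The study's methods use DESeq2, run here (1.42.0) as an alternative because edgeR was chosen for counts. The procedure was tested on simulated counts, where 164 of 200 genes changed 4-fold were called in the AOM-DSS WT against Control WT design. RPKM is CPM per kilobase of exon length. Likeness used log2(CPM + 0.5) among genes with a mean of at least 1 CPM. Summed marker levels and ratios are descriptions. The other alternatives were RLE and library size normalization, no filter, all 9 mice in 1 fit, single lanes and fits without each mouse. DESeq2 and fits without each mouse were added for the pathway and marker lists after their values were seen.

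The 9 genes and all lists were chosen with earlier results of these data known. All genes of the NADPH oxidase and nitric oxide synthase lists could be named. From other pathway lists the 3 called genes with the largest log2 fold change in each comparison were named, from marker lists the 2 most abundant genes and any at 0, and for likeness the 3 nearest genes. The values of 1 gene of the NADPH oxidase list are not reported here.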

Additional observations from a re-analysis of the deposited data

How the results depend on the processing

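The counts of the 9 genes called were 7, 4 and 2 in AOM-DSS WT against Control WT, AOM-DSS Claudin-2TG against AOM-DSS WT and AOM-DSS Claudin-2TG against Control WT mice. With no filter on low counts the first fell to 4, the phagocyte genes, as the epithelial genes *Nox1*, *Duoxa2* and *Nos2* lost their calls. With lane 2 only, *Nox1* and *Cybb* lost their calls in that comparison. The count against Control WT in AOM-DSS Claudin-2TG mice fell to 1 with library size only and to 0 with all 9 mice in 1 fit. Fits without 1 mouse gave 0 to 7, 0 to 8 and 0 to 2, with 0 without mouse 2, without mouse 8, and without mouse 2 or 3, and 7 and 8 without mouse 4. Of 351 values of single genes under alternatives, 280 kept direction and side of the threshold, 51 lost the call, 15 gained it and 5 changed sign. The sign changed for *Noxo1* in AOM-DSS Claudin-2TG against AOM-DSS WT mice (log2 fold change -0.0146 with library size only, -0.16 with lane 2 only, -0.23 to 0.56 in fits without 1 mouse, lowest without replicate 6) and for *Ncf4* against controls (0.052 with lane 1 only, -0.58 to 0.36 in fits without 1 mouse, highest without replicate 1). The cause was not tested. Over all genes, 1421 calls became 2136 and 1501 became 445 with all 9 mice, and 1501 became 2567 with no filter. Without 1 mouse, 2310 became 135 to 4080, 1421 became 58 to 2894 and 1501 became 525 to 1383. No paired analysis was possible because no replicate number is shared between groups. With 3 mice a group and 10 to 31 counts of *Cybb* in the AOM-DSS Claudin-2TG mice, fold changes of the low genes are imprecise.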
